A study of Mus musculus with 250 samples.

Results

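The genes described here are 3 keratins of basal keratinocytes, Krt5, Krt14 and Krt15, and Trp63, the gene of the transcription factor p63. They were chosen by symbol and make 4 of the 27003 gene symbols in the deposited table. All 4 had reads in every plate and passed the filter on low values in every comparison. Levels were measured in 250 single epidermal cells of mouse tail skin by Smart-Seq2, which sequences whole transcripts of each cell and tags no single molecule. Every cell came from a mouse with the alleles Lrig1CreER and Rosa-TdTomato, belonged to the Lrig1 lineage and was sorted for Sca1 (Ly6a) on its surface to enrich for the upper hair follicle. CreER is active only after tamoxifen in cells that express Lrig1, so the reporter marks those cells and their progeny. Neither the tamoxifen schedule nor any animal is named in the labels.

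The cells came from 3 regions at 1 labelled time, 8 weeks, followed by an abbreviation that the labels do not spell out. The wound bed gave 30 cells in batch 1 and 55 in batch 2, the distal memory region 32 and 49, and the control region, which lies outside the memory region, 28 and 56. Each region and batch was 1 plate, and within a batch the region and the plate cannot be told apart. With no animal named, each region counts as 1 sample: nothing below was tested, and the 2 batches are shown beside each other because it is not known whether they are separate mice. Reads summed to 1751116 in wound bed batch 1, to 10671470 in distal batch 1 and to between 2888806 and 4481121 in the other plates. In distal batch 1, 4 cells had over 500000 reads each. Repeat-like genes took 10.2% of the non-mitochondrial reads in control batch 1, 15.4% in distal batch 2 and 5.75% in control batch 2, but under 1% in the other 3 plates. Some other cell types were nearly absent: a fibroblast list had any read in 9 of 250 cells and an endothelial list in 5. Any read of an immune list was found in 4 cells, of a melanocyte list in 3 and of a Merkel cell list in 2. A sebaceous gland list had a read in 205 of the 250 cells, and summed to between 354 and 3097 CPM by plate. Whether any of these were sebaceous cells was not tested. The list of 10 basal epidermal markers, which includes Krt5, Krt14 and Trp63, had a read in 244 of the 250 cells.

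Keratins form filaments as pairs of a type II and a type I chain. In the basal layer, where the dividing cells of the epidermis sit, Krt5 is the type II chain and Krt14 its main type I partner. Krt15 is a second type I chain, known from quiescent basal cells and from stem cells of the hair follicle bulge. p63 is required to form and maintain stratified epithelia and is known to act on both Krt5 and Krt14. As cells leave the basal layer they switch to the pair Krt1 and Krt10.

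In GENCODE M21 on GRCm38, all 4 genes are protein coding. Krt5 (ENSMUSG00000061527.7) lies on the minus strand at chr15:101707070-101712898 in the type II keratin cluster. Krt14 (ENSMUSG00000045545.8) and Krt15 (ENSMUSG00000054146.8) lie on the minus strand in the type I cluster, at chr11:100203162-100207548 and chr11:100131758-100135928, with 67233 bases between them. Trp63 (ENSMUSG00000022510.14) lies on the plus strand at chr16:25683763-25892102, and its 8 coding transcripts were counted together as 1 gene. Krt5 overlaps the antisense miRNA gene Gm44323, with which it shares 4.57% of its stretches of 31 bases. Smart-Seq2 does not keep the strand of a transcript, so reads of that overlap cannot be assigned for certain. Trp63 overlaps Gm24928 on the other strand and the pseudogene Gm27005, but its coding transcripts share 0 such stretches with any other gene.

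Because the Krt15 to Krt14 relation rests on telling both transcripts apart, the coding stretch around their longest identical run is shown. It lies at bases 663 to 737 of the Krt14 coding sequence, chr11:100204994-100205068, and at bases 597 to 671 of that of Krt15, chr11:100134221-100134295, both read on the minus strand of GRCm38. Capitals mark the 5 bases of 75 that differ.
Krt14: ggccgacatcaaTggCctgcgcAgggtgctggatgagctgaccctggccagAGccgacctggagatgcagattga
Krt15: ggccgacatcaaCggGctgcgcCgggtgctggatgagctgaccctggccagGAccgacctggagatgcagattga
Over the 1359 aligned coding bases 71.8% were identical, and the longest identical run was 28 bases. The transcripts of Krt14 and Krt15 had 0 stretches of 31 bases in common. Krt15 shared 3.89% of its 31-base stretches with any other gene, and Trp63 shared 0. The other keratins were less distinct: Krt14 shared 18.2% of its stretches with Krt16 and 10.8% with Krt17, and Krt5 shared 9.46% with Krt6a. Reads from those stretches could be divided wrongly between the genes, so the Krt14 and Krt5 counts are less certain than those of Krt15 and Trp63.

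Krt14 was the most widely found of the 4 genes, with at least 1 read in 214 of 250 cells, against 179 for Trp63, 174 for Krt5 and 160 for Krt15. Per kilobase of transcript Krt14 also had the highest level in every plate. Its scaled CPM (counts per 1000000 reads, after scaling the summed reads of each plate by TMM) came to 1048 and 2133 per kilobase in the wound bed, 1094 and 1944 in distal cells, and 1709 and 1669 in control, in batches 1 and 2. The second place differed between regions. In the wound bed Krt5 stood above Krt15, with 133 and 233 CPM per kilobase for Krt5 and 83.6 and 168 for Krt15. In the distal region Krt15 stood above Krt5, with 280 and 641 CPM per kilobase for Krt15 and 131 and 237 for Krt5. In control Krt15 was again above Krt5, with 507 and 988 for Krt15 and 155 and 125 for Krt5. Trp63, with 38.4 to 157 CPM per kilobase, was the lowest of the 4 in 5 of 6 plates, and stood above Krt5 in distal batch 1. This place depends on the length used, here 5366 bases, since the shortest coding transcript of Trp63 has 1729. Without division by length, Trp63 was also above Krt5 in wound bed batch 1 (351 against 291 CPM) and control batch 2 (327 against 275).

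**Figure D1:**
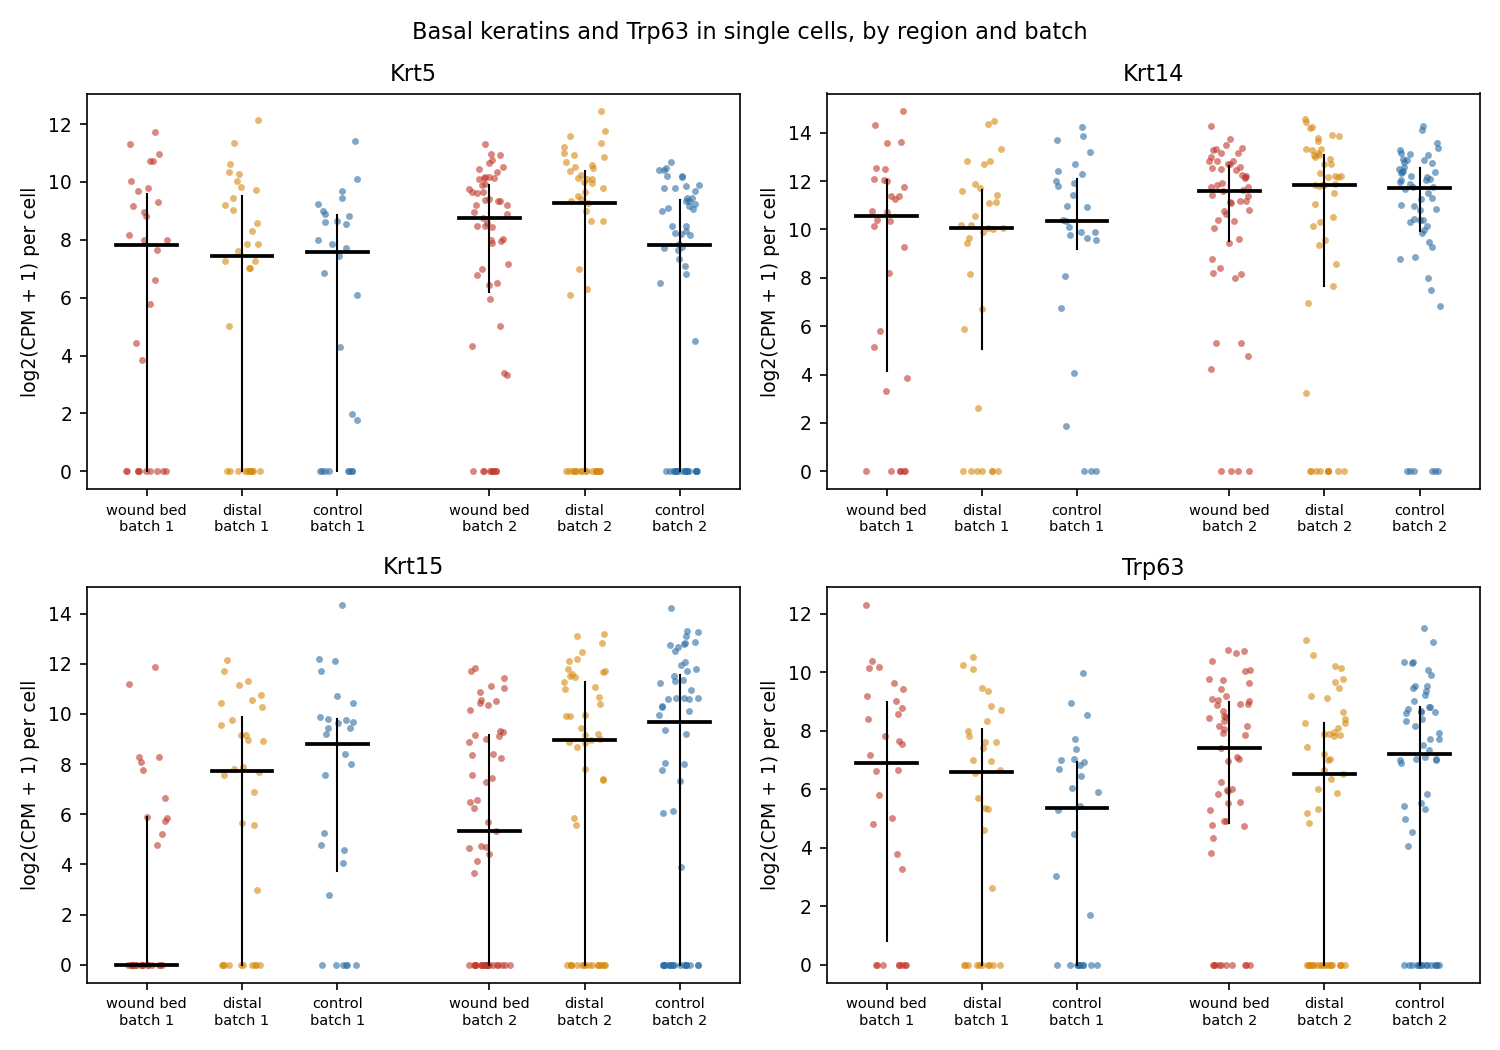
Level of each gene in every cell, as log2(CPM + 1) on that cell's own read total, by region and batch. Each point is 1 cell, thick lines are medians and thin lines join the quartiles; the median of Krt15 is at 0 in wound bed batch 1, and lower in both wound bed plates than in any other plate.

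Krt15 was the member that differed between regions: it was low in the wound bed in both batches. Summed over cells it reached 142 and 286 CPM in wound bed batches 1 and 2, 476 and 1090 CPM in distal cells, and 862 and 1679 CPM in control. The order wound bed, distal, control held in each batch, and both wound bed plates lay below all 4 other plates. Distal and control overlapped, since distal batch 2 lay above control batch 1. The sums rest on 257 Krt15 reads in wound bed batch 1 (exact Poisson 95% interval 227 to 290) and 946 in wound bed batch 2 (887 to 1008), and on 3039 to 8394 reads in the other plates. Such intervals cover counting error alone, since 1 molecule can give many reads.

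As log2 ratios of scaled CPM plus 1, Krt15 stood at −2.59 and −2.55 in wound bed against control, on average a 5.94-fold higher level in control. A gene was counted as different when its log2 ratio was at least 1 in size, with the same sign, in both batches. Of the 4 members 1, Krt15, met this rule in wound bed against control, where 16.1% of the 5776 genes considered did. Against the wound bed, the distal region had Krt15 log2 ratios of 1.74 and 1.93, and again Krt15 was the 1 member of 4 that met the rule, where 14.9% of 6285 genes did. Krt15 kept to the rule in both comparisons under each of 10 other settings of scaling, depth and choice of cells, with ratios between −4.17 and −1.99 for wound bed against control and between 1.19 and 4.39 for distal against wound bed. In distal against control 0 of 4 members met the rule, where 14.2% of 6356 genes did. Krt15 had log2 ratios of −0.86 and −0.62 there, below 1 in size in each batch.

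The ratios carry a shift common to all genes. In batch 1 the median gene had a log2 ratio of 0.23 in distal against control and 0.25 in distal against wound bed, and in distal against wound bed it was −0.25 when reads were scaled by their totals. Relative to the median gene, Krt15 stood at −2.62 and −2.52 in wound bed against control, at −1.09 and −0.55 in distal against control, and at 1.49 and 1.94 in distal against wound bed.

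**Figure D2:**
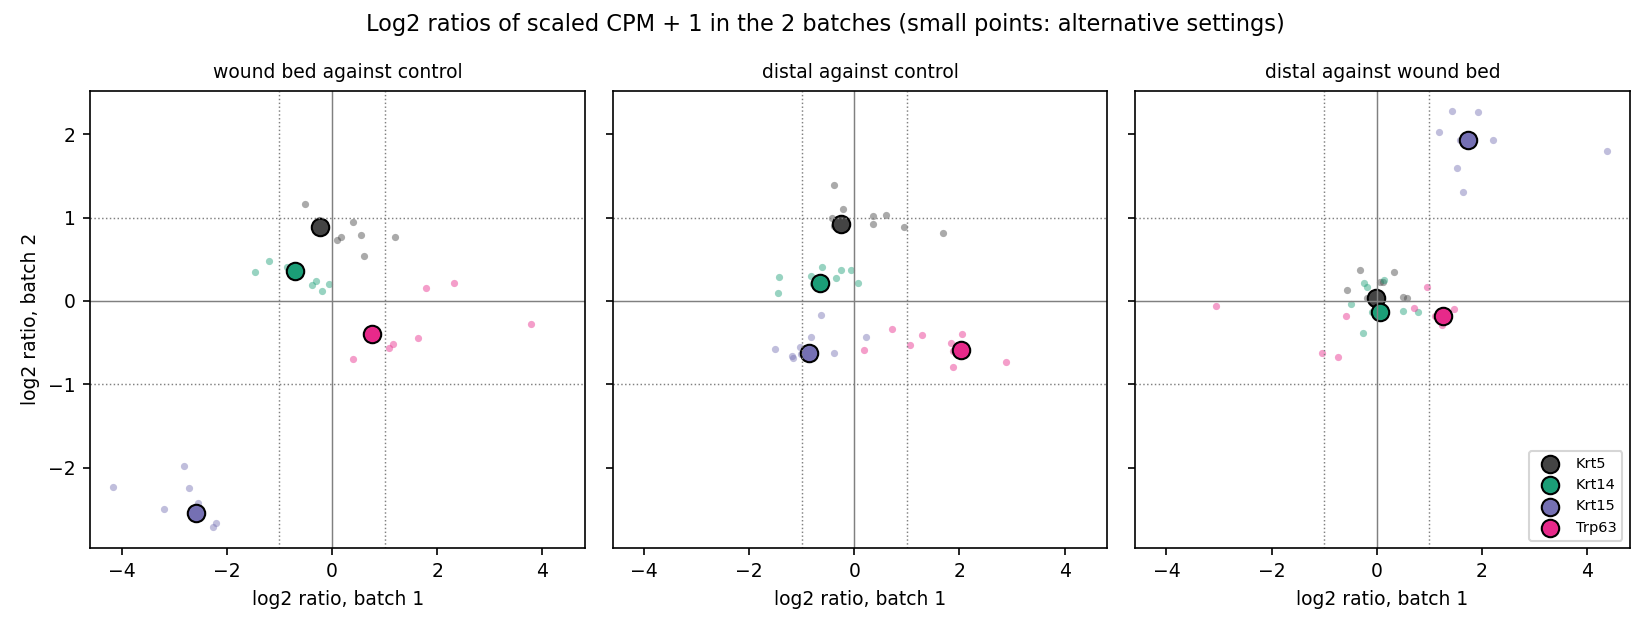
Log2 ratio of scaled CPM + 1 in batch 1 (horizontal) and batch 2 (vertical) for the 4 genes in 3 comparisons. Large points are the values in the text, small points those under 10 other settings, and dotted lines mark 1 and −1; Krt15 is beyond 1 in both batches in both comparisons with the wound bed, and Trp63 spreads along batch 1.

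Both the number of cells with Krt15 and the level in them were low in the wound bed. A read of Krt15 was found in 46 of 85 wound bed cells, or 54.1% (exact Clopper-Pearson 95% interval 42.96 to 64.98%). It was found in 55 of 81 cells of the distal region, or 67.9% (56.6 to 77.8%), and in 59 of 84 cells of control, or 70.2% (59.3 to 79.7%). In batch 1 the shares were 40% in the wound bed, 68.8% in the distal region and 78.6% in control. In batch 2 they were closer, at 61.8%, 67.3% and 66.1%. With each cell thinned to 10000 reads the shares were 39.7%, 62.3% and 65.1%. Thinning left out 7 wound bed, 4 distal and 1 control cell with fewer reads. The intervals cover counting error within these cells and do not compare the regions. By plate the thinned shares were 31.03 and 44.9% in the wound bed, 56.3 and 66.7% in distal cells, and 67.9 and 63.6% in control.

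Among cells with a Krt15 read, the median level was 159 and 405 CPM in the wound bed, 568 and 1345 CPM in distal cells, and 742 and 1980 CPM in control, in batches 1 and 2. In each batch these medians followed the same order as the sums. The Krt15 reads were uneven over cells, most of all in batch 1. In wound bed batch 1, 1 cell held 40.9% of them and 3 cells held 79.4%. The same shares were 41.9% and 64.8% in distal batch 1, and 24.4% and 59.7% in control batch 1. In wound bed batch 2 they were 20.5% and 45.3%.

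Krt14 did not follow Krt15. It reached 1779 and 3622 scaled CPM in the wound bed, 1857 and 3301 in distal cells, and 2902 and 2835 in control. The regions overlapped. The log2 ratios were −0.71 and 0.35 in wound bed against control, −0.64 and 0.22 in distal against control, and 0.06 and −0.13 in distal against wound bed. They were of opposite sign in the 2 batches in all 3 comparisons, although distal against wound bed gave −0.48 and −0.03 when scaled by total reads, and distal against control gave 0.08 and 0.22 without the 4 deepest cells. Leaving out cells rich in repeat-like reads kept 10 of 28 control cells in batch 1. The batch 1 ratios against control were then −1.47 for the wound bed and −1.44 for the distal region. In cells without a Krt10 read they were −1.19 and −1.45. The batch 2 ratios stayed positive in both settings. A Krt14 read was found in 88.2% of wound bed cells, 79.01% of distal cells and 89.3% of control cells.

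Krt5, the type II partner, reached 291 and 511 scaled CPM in the wound bed, 288 and 522 in distal cells, and 341 and 275 in control. The wound bed and the distal region were close in each batch, with log2 ratios of −0.02 and 0.03 in distal against wound bed. Against control, the ratios were −0.23 and 0.89 for the wound bed and −0.24 and 0.92 for the distal region, so batch 1 and batch 2 had opposite signs with TMM scaling. The batch 1 sign depended on the setting. Scaled by total reads it was 0.16 for the wound bed, and in thinned cells the ratios were 0.62 and 0.54 for the wound bed and 0.95 and 0.89 for the distal region. Shares of cells with a Krt5 read were 77.6%, 64.2% and 66.7% in wound bed, distal and control. By plate the shares were 66.7 and 83.6% in the wound bed, 65.6 and 63.3% in distal cells, and 71.4 and 64.3% in control, so the regions overlapped.

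Trp63 reached 351 and 248 scaled CPM in the wound bed, 841 and 218 in distal cells, and 206 and 327 in control. The regions overlapped, and the highest value, in distal batch 1, came largely from 1 cell, which held 3812 of the 6363 Trp63 reads (59.9%). The log2 ratio of distal against control was 2.03 in batch 1 and −0.58 in batch 2. Without the 4 cells of over 500000 reads the batch 1 value was 0.18. In distal against wound bed the batch 1 value was 1.26 with those cells and −0.59 without them, and the batch 2 value was −0.18 either way. The wound bed against control gave 0.77 and −0.40. Trp63 was found in 78.8% of wound bed cells, 65.4% of distal cells and 70.2% of control cells, and after thinning in 60.3%, 51.9% and 54.2%. Cells with a Trp63 read were deeper than cells without, with median depths of 57691 and 36234 reads, whereas those with and without Krt14 had 49298 and 55481.

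The balance of Krt15 against Krt14 within a cell needs no scaling between plates, since both counts come from the same cell. It was taken as log2((Krt15 reads + 1)/(Krt14 reads + 1)) in the 64 wound bed, 60 distal and 73 control cells that had at least 10 reads of the pair. Because 1 is added to each count, the value of a cell with few or no Krt15 reads still depends on its depth. In the wound bed the median was −5.95 and −4.49 in batches 1 and 2. It was −1.86 and −2.12 for distal cells, and in control −1.94 and −1.77. Both wound bed medians lay below the other 4, which were within 0.35 of each other. The difference of medians was −4.01 and −2.72 in wound bed against control, and 4.10 and 2.37 in distal against wound bed. In distal against control it was 0.09 and −0.35. The size in wound bed against control varied with the setting. It was −2.33 and −2.84 in thinned cells, and −2.60 and −1.75 with a minimum of 1 read of the pair. From reads summed per plate it was −1.89 and −2.91. Krt15 was below Krt14 in the median cell of every plate. As a share of the reads of the pair, Krt15 made 2.30% in the median wound bed cell, 19.9% in the median distal cell and 20.8% in the median control cell.

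**Figure D3:**
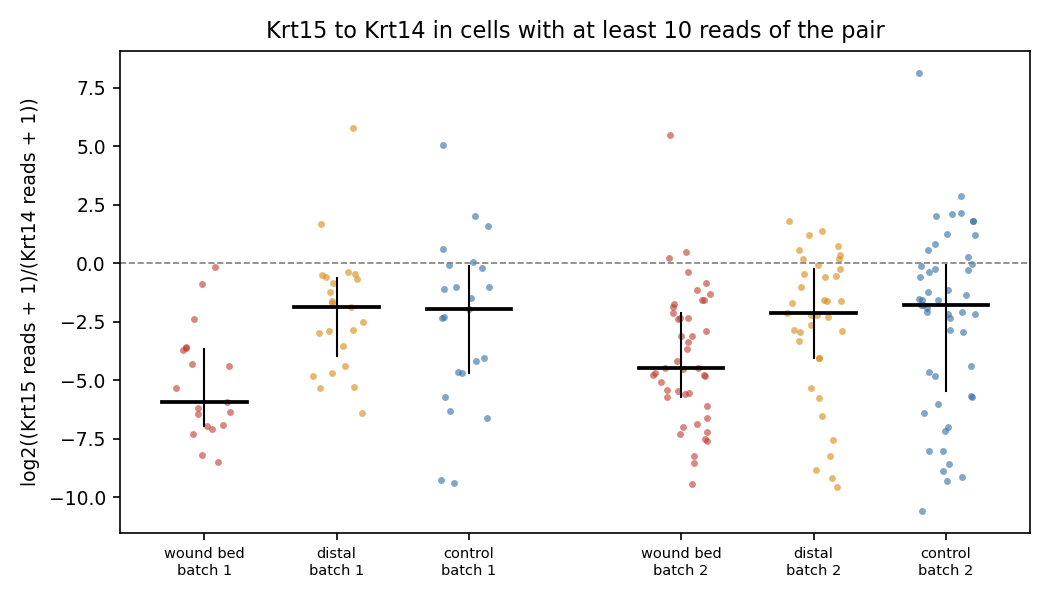
Balance of Krt15 to Krt14 in each cell with at least 10 reads of the pair, on a log2 scale, by region and batch. Each point is 1 cell, thick lines are medians and thin lines join the quartiles; the medians of the 2 wound bed plates, at −5.95 and −4.49, are the lowest, and each plate spans a wide range.

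Cells varied widely within each plate. In control batch 2 the balance ran from −10.6 to 8.14, with quartiles at −5.46 and −0.07. In wound bed batch 1 it ran from −8.50 to −0.15, so none of the 19 cells there with at least 10 reads of the pair had more Krt15 than Krt14 reads. Krt15 made over 50% of the pair in 3 of 64 wound bed cells (4.69%, exact interval 0.98 to 13.1%), in 10 of 60 in distal (16.7%, 8.29 to 28.5%) and in 17 of 73 in control (23.3%, 14.2 to 34.6%). These Krt15-rich cells were found in both batches of distal and control, and in the wound bed in batch 2 alone. At the other end, 20 of the 64 wound bed cells (31.3%), 6 of the 60 distal cells and 15 of the 73 control cells (20.5%) had no Krt15 read. In wound bed batch 1 this was 9 of 19 cells and in wound bed batch 2 it was 11 of 45, close to the 13 of 50 in control batch 2, whereas control batch 1 had 2 of 23. The share without any Krt15 therefore did not set the wound bed apart in both batches, unlike the median balance.

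Across cells of a plate, the levels of Krt14 and Krt15 ran together to a varying degree. Over all cells Spearman's rho was 0.38 and 0.39 in the wound bed (n = 30 and 55), 0.76 and 0.34 in distal cells (n = 32 and 49), and 0.37 and 0.23 in control (n = 28 and 56). Over the cells with at least 10 reads of the pair it was between −0.19 and 0.45. Cells of a plate share their library batch and each value is a share of the cell's own reads, so these are descriptions.

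**Figure D4:**
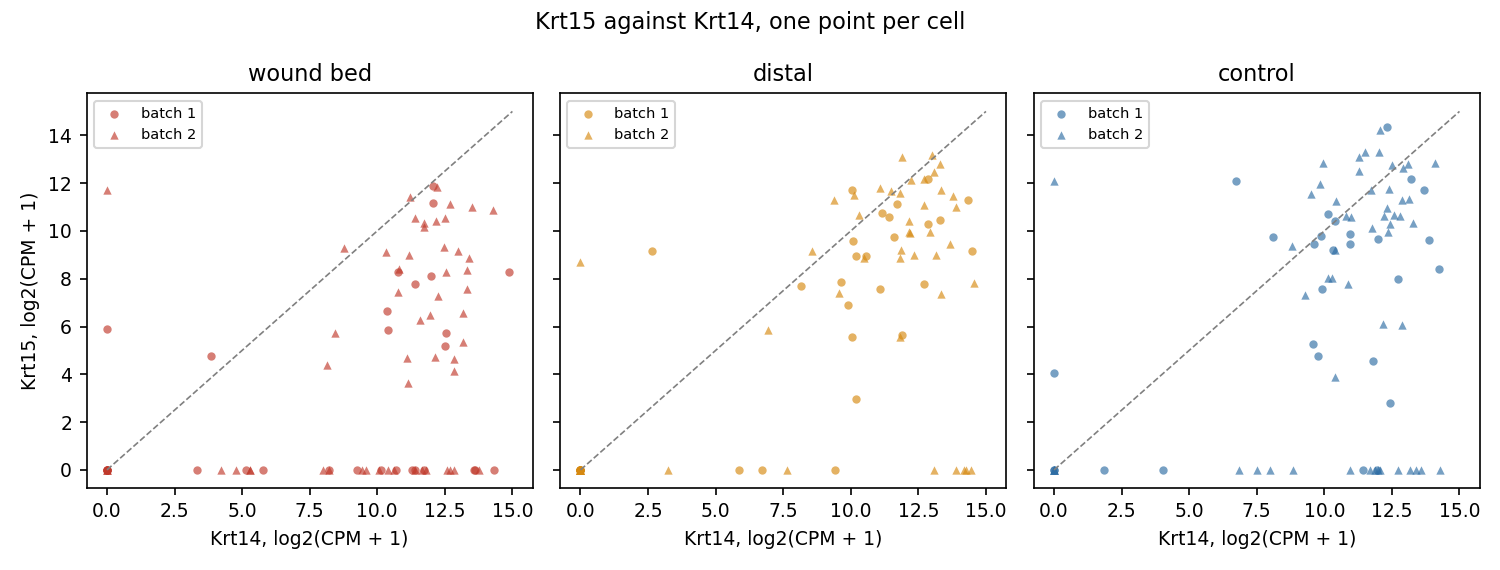
Krt15 against Krt14 in each cell, as log2(CPM + 1), with 1 panel per region, circles for batch 1 and triangles for batch 2; the dashed line marks equal levels. Wound bed cells lie mostly well below the line or at 0 for Krt15, while 10 distal and 17 control cells with at least 10 reads of the pair have more Krt15 than Krt14 reads.

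Krt10, the early suprabasal keratin, was used to split the cells. No Krt10 read was found in 17 wound bed cells, 22 distal cells and 36 control cells. Their median depths were 28047, 26086 and 65262 reads, against 42104, 67283 and 63690 reads in cells of wound bed, distal and control with a Krt10 read. These cells were richer in the basal keratins: median Krt5 levels were 1056 CPM in such cells of the wound bed, 1049 in the distal region and 478 in control, against 224, 128 and 0 CPM in cells with a Krt10 read of wound bed, distal and control. The median Krt15 levels were 339, 2370 and 1796 CPM without Krt10 and 0, 165 and 14.8 CPM with it. Within the cells without Krt10, Krt15 was still low in the wound bed, with log2 ratios of −4.17 and −2.23 against control, although batch 1 then rests on 5 wound bed and 10 control cells. The median balance of Krt15 to Krt14 was −3.63 in wound bed, −0.53 in distal and −1 in control cells without Krt10, and −4.79, −2.86 and −4.12 in cells with it. Among cells with a Krt10 read the wound bed and control medians were closer, −5.66 and −4.77 in wound bed batches 1 and 2, against −2.31 and −4.64 in control, so that in batch 2 the wound bed and control were nearly equal.

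Summed marker levels differed between plates. Suprabasal sums were highest in the wound bed and upper hair follicle sums in control, while the other regions overlapped. The summed level of the 11 suprabasal markers was 33276 and 25617 CPM in the wound bed, 19872 and 9858 in distal cells, and 15003 and 13270 in control, with Krt77 at 0 in both wound bed plates, in distal batch 2 and in control batch 1, and Lor at 0 in wound bed batch 1 and distal batch 2. The 11 upper hair follicle markers summed to 2351 and 12804 CPM in the wound bed, 4298 and 6896 in distal cells, and 16625 and 28539 in control, with Klk10 at 0 in both wound bed plates and Lrig1 at 0 in wound bed batch 2. The part of these differences in the Krt15 result was not tested. Besides Krt15, the 7 bulge markers summed to 461 and 572 CPM in the wound bed, 2270 and 957 in distal cells, and 564 and 650 in control. Of these 7, Lhx2 and Cd34 had no read in either wound bed plate and Lgr5 had none in wound bed batch 2; Cd34 also had none in batch 1 of the distal region and of control. Any of the 7 was found in 16 of 30 and 26 of 55 wound bed cells, 28 of 32 and 44 of 49 distal cells, and 23 of 28 and 47 of 56 control cells. The share of cells with a bulge marker was thus low in the wound bed, as Krt15 was, while the summed levels of wound bed and control were closer. The part of bulge cells in the Krt15 result was not tested.

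Reads of the whole set were found in 118 of the 250 cells. These were 37 of 85 wound bed cells (43.5%), 38 of 81 distal cells (46.9%) and 43 of 84 control cells (51.2%). None of the 4 was found in 1 wound bed, 10 distal and 5 control cells. The set Krt5, Krt14 and Trp63 without Krt15 was found in 17 wound bed cells, against 2 in the distal region and 1 in control. Trp63 as the sole member was found in 7 wound bed, 6 distal and 2 control cells.

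Krt5 and Krt14 were strongly nested. Of the 174 cells with Krt5, 173 also had Krt14, and the 1 exception was a control cell of batch 2. The reverse was looser: Krt14 without Krt5 was found in 9 of 75 wound bed, 12 of 64 distal and 20 of 75 control cells with Krt14. Over the cells of a plate, the levels of Krt5 and Krt14 had a Spearman's rho of 0.90 and 0.91 in the wound bed, 0.88 and 0.69 in distal cells, and 0.12 and 0.30 in control. Thinned to equal depth, the values were 0.85 and 0.85, 0.85 and 0.71, and 0.02 and 0.26 in the same order. The keratin pair was thus closely matched from cell to cell in the wound bed and in distal batch 1, and loosely in both control plates.

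**Figure D5:**
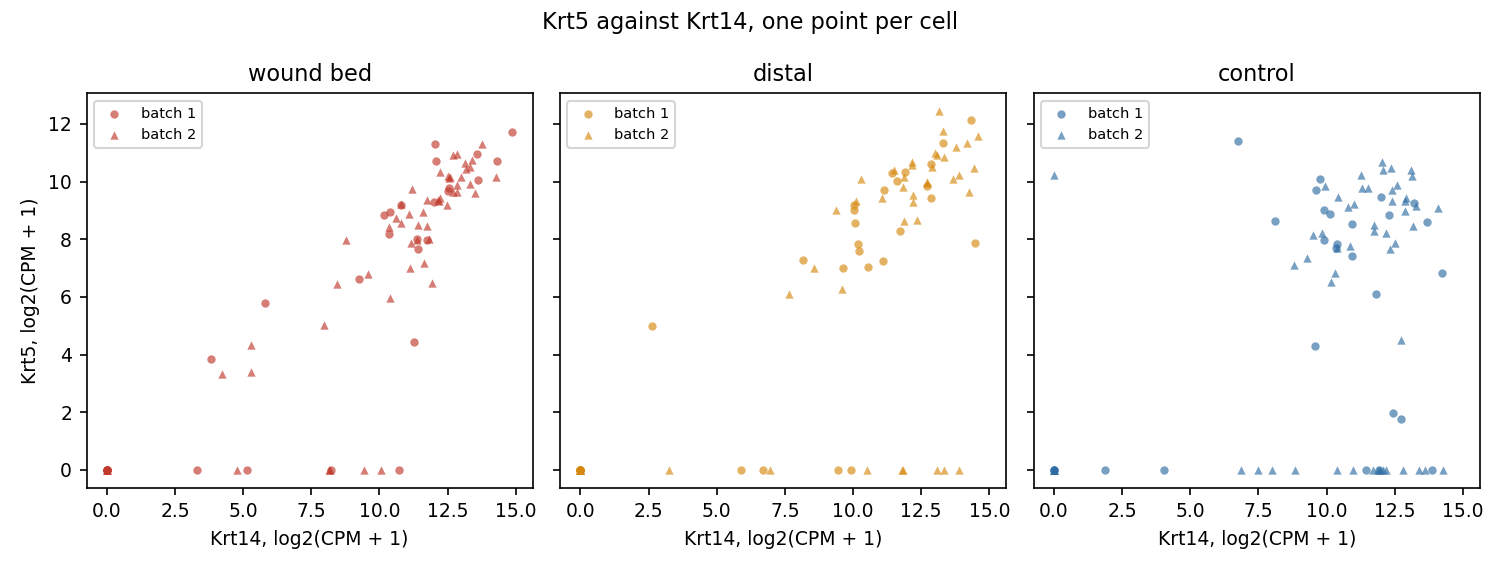
Krt5 against Krt14 in each cell, as log2(CPM + 1), with 1 panel per region, circles for batch 1 and triangles for batch 2. In the wound bed and distal panels the points follow a diagonal; in the control panel a row of cells with high Krt14 has Krt5 at 0.

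Control held most of the cells with ample Krt14 and no Krt5, a class chosen after the values were seen. Of cells with at least 10 Krt14 reads, 3 of 62 in the wound bed (4.84%, exact interval 1.01 to 13.5%), 9 of 58 in the distal region (15.5%, 7.35 to 27.4%) and 17 of 71 in control (23.9%, 14.6 to 35.5%) had no Krt5 read. By batch the shares were 5.26 and 4.65% in the wound bed, 9.09 and 19.4% in distal cells, and 13.6 and 28.6% in control. The depth of these 17 control cells ran from 7278 to 243419 reads, and their median Krt14 count was 203 reads. In control batch 1 the 3 cells without Krt5 had a median of 25357 reads and the 19 with both genes 85398. In control batch 2 the 14 cells without Krt5 had a median of 93826 reads and the 35 with both genes 57691. Depth therefore differed between these cells in opposite directions in the batches, and its part in the missing Krt5 reads was not tested. All 17 had reads of Krt10, and 15 had reads of Krt79, a keratin of the upper hair follicle and sebaceous duct, against 19 and 17 of the 54 control cells with both genes. Krt17, a keratin of the follicle that shares sequence with Krt14, had reads in 12 of the 17 cells and in 19 of the 54. Krt15 went the other way, with reads in 4 of the 17 and 52 of the 54. Of the 9 distal cells without Krt5, 8 had Krt10, 6 had Krt79 and 6 had Krt15 reads. Whether reads of Krt17 were counted as Krt14 in these cells was not tested.

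Krt15 was tied more closely to Krt5 than to Krt14. Spearman's rho of Krt5 and Krt15 over the cells of a plate was 0.54 and 0.45 in the wound bed, 0.83 and 0.65 in distal cells, and 0.72 and 0.85 in control. In the distal region 48 of the 52 cells with Krt5 had Krt15, and in control 54 of 56, but in the wound bed 43 of 66. In the mean over plates, Trp63 ran less closely with the keratins than these did with each other. Its rho averaged 0.30 with Krt5, 0.22 with Krt14 and 0.37 with Krt15 over the 6 plates. All of these means were above 0.21, the 95th percentile for Trp63 over the genes ranked below. The rho of Trp63 with Krt14 ranged from −0.02 to 0.45. The order did not hold for every pair in each plate. In control, Trp63 had a rho of 0.34 with Krt5 in batch 1 and of 0.45 with Krt15 in batch 2. Krt5 and Krt14 had 0.12 and 0.30 in those plates.

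The genes whose levels ran most like each member were ranked by the mean of the 6 within-plate rho values, over 314 genes found in at least 50% of the cells of every plate. Predicted genes (Gm or Rik names), ribosomal protein genes, mitochondrial genes and spike-ins were left out of the ranking. Krt15 itself was not among the 314, since 40% of the cells of wound bed batch 1 had a read of it; its mean rho with Krt5, 0.67, was as high as that of any gene ranked for Krt5, and its 0.37 with Trp63 was below Dst alone. For Krt5 the nearest genes were Col17a1 (0.67), a collagen that spans the membrane at hemidesmosomes, then Krt14 (0.63), the calcium-binding protein gene S100a6 (0.63), the hemidesmosome plakin Dst (0.56) and the ferritin heavy chain gene Fth1 (0.53). For Krt14 they were Krt5 (0.63), the apolipoprotein gene Apoe (0.54), Col17a1 (0.48), S100a6 (0.48) and the interferon-induced membrane protein gene Ifitm2 (0.45). For Krt15 they were Krt5 (0.67), S100a6 (0.59), Col17a1 (0.50), Ifitm2 (0.49) and Dst (0.44), with Krt14 in place 8. For Trp63 they were Dst (0.40), the ubiquitin ligase gene Nedd4 (0.35), Col17a1 (0.33), Krt5 (0.30) and the chromatin protein gene Hmgb1 (0.28). The median gene had a mean rho between 0.00 and 0.04 with each member, and the 95th percentile was 0.28, 0.29, 0.29 and 0.21 for Krt5, Krt14, Krt15 and Trp63. Col17a1 thus stood among the nearest 5 of all 4 members and Dst of 3 of them.

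Basal cells hold to the basement membrane through integrins, hemidesmosome proteins and laminins, and 12 such genes were listed. In wound bed against control 0 of the 12 met the size rule, against 16.1% of all genes considered in either direction, with a median log2 ratio of −0.01 and 0.98, beside medians of 0.03 and −0.03 over all genes considered. The pair with the highest CPM, Dst and Col17a1, had log2 ratios of 1.05 and 0.90 for Dst and 1.22 and 0.95 for Col17a1, just short of the rule in batch 2. In distal against control, where 14.2% of genes did, 1 of 12 met it. Plec, the gene of the cytolinker plectin, was higher at 2.40 and 1.23, and the list's medians were 0.60 and 0.70 beside 0.23 and −0.07 over all genes. In distal against wound bed 0 of 12 met the rule, against 14.9% of all genes, with 0.68 and −0.55 for Dst and 0.45 and −0.08 for Col17a1. With so short a list, these counts do not set it apart from the other genes.

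The p63 circuit was listed as 26 genes: relatives of p63 and genes known as its targets or regulators in keratinocytes. In wound bed against control 21 were considered. Fgfr2, a receptor for keratinocyte growth factor known as a p63 target, was higher at 2.998 and 1.13. The relatives Trp53 and Trp73 were lower, Trp53 at −1.08 and −1.48 and Trp73 at −1.91 and −1.40, the last on 4 and 10 wound bed reads. In distal against control, 22 were considered. Notch1, a receptor that promotes keratinocyte differentiation, was higher at 2.26 and 1.44, the first on 5 control reads. Trp73 (−3.41 and −2.76, on 1 and 2 distal reads) and the growth factor gene Bmp7 (−2.16 and −1.40) were lower. In distal against wound bed, Trp53 (1.05 and 2.37) and Runx1 (3.84 and 1.98) were higher and 0 were lower among 21. Runx1, a transcription factor of hair follicle stem cells, had 6 and 12 wound bed reads. The list's median log2 ratios were 0.03 and −0.47 in wound bed against control, 0.51 and 0.08 in distal against control, and −0.02 and 0.54 in distal against wound bed. With 3 of 21, 3 of 22 and 2 of 21 genes meeting the rule, the circuit was no richer in such genes than the 14.2 to 16.1% of all genes considered.

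Of 24 other keratins, 22 had a row in the table and 9 or 10 were considered in each comparison. The rule was met by 1 of 10 in wound bed against control, 2 of 9 in distal against control and 2 of 10 in distal against wound bed, against 16.1%, 14.2% and 14.9% of all genes. In wound bed against control it was Krt79, at −2.30 and −2.02. In distal against control Krt7, a keratin of simple and glandular epithelia, was higher at 3.796 and 3.19, and Krt17 lower at −1.83 and −1.29. In distal against wound bed Krt7 was higher at 2.55 and 3.16, and Krt1, the suprabasal partner of Krt10, lower at −2.71 and −1.24. Krt10 itself reached 18426 and 12873 CPM in the wound bed, 13913 and 3269 in distal cells, and 8733 and 7062 in control.

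Of the 4 members, 2 had an entry in the RefSeq promoter table of GRCm38.p6. That of Krt14 starts inside the GENCODE gene model and is not shown. That of Krt5 covers 250 bases before to 50 bases after the start, chr15:101712856-101713155, minus strand, and is shown because p63 is known to bind p53-family sites. Capitals mark the 1 match to the p53-family decamer, a single repeat of the element that p53 and its relatives bind, at −95 to −86 from the start; the pattern matches there on both strands.
Krt5 promoter: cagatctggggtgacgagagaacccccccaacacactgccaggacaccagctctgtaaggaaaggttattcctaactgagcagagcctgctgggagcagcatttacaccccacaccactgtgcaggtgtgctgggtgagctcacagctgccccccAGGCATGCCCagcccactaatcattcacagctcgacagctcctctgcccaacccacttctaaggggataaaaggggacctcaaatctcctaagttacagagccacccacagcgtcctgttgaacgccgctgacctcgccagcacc
Such a decamer was present in 8.36% of 32851 promoters of the same length, searched on both strands. The letters TATAAA, present in 13.6% of them, and the AP-1 letters TGANTCA, present in 7.81%, were not found in the Krt5 window on either strand. A match of letters is a description and does not show binding.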

How the data were processed

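The values deposited by the authors are read counts, whole numbers for 27003 symbols in each cell. Per the submitters' processing notes, the tools were R 4.0.3, Seurat and Salmon 0.13.1, and the build mm10 (GRCm38). How transcript estimates became gene counts is not given in the sources used here. All 250 columns matched a label, with 0 left over, and 26417 symbols matched GENCODE M21. No cell was left out and no doublet caller was run.

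Counts were summed per plate and scaled with edgeR's TMM factors (edgeR 4.0.16, R 4.3.3). Comparisons are log2 ratios of CPM plus 1 within each batch, over genes that reached 10% of cells in either region, in each batch. Cells were thinned to 10000 reads for shares at equal depth. The count steps were tested on simulated data (Python 3.11.15, numpy 2.4.6, scipy 1.17.1, pandas 2.3.3). Lengths are those of the longest transcript.

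The members and lists were chosen with earlier results of these data known. The text names the 4 members, list genes that met the size rule or, where none did, the 2 of highest CPM, and for each member the 5 genes of highest mean rho; Krt10 levels, bulge genes at 0 and the keratins of Krt14 cells without Krt5 were added after their values were seen. Settings varied were scaling, pseudocount, depth, filters, batch and choice of cells.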

Additional observations from a re-analysis of the deposited data

How the results depend on the processing

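Each region was 1 sample, so these values have no error between animals. Every ratio was formed within a batch. Krt15 met the size rule in both comparisons with the wound bed under each setting that used both batches, and each batch alone kept its sign and size. Values that did not meet the rule could change sign. The mean log2 ratio of Trp63 in distal against wound bed was 0.54 as reported, −0.70 with cells weighted equally, −0.84 in thinned cells, −0.39 without the 4 deepest cells and −1.56 in cells without a Krt10 read. In distal against control, that of Trp63 was 0.72 as reported and −0.20 without those cells. The Krt15 to Krt14 difference in distal against control was −0.13 as reported and 0.46 in cells without a Krt10 read. The mean ratios of Krt5 and Krt14 were at most 0.34 in size as reported. Those of Krt14, that of Krt5 in distal against wound bed and that of Trp63 in wound bed against control also changed sign under some settings. Against control the mean ratio of Krt5 stayed positive under each setting that used both batches. It was between 0.32 and 0.98 for the wound bed and between 0.25 and 1.25 for the distal region. For Trp63, batch 1 alone gave 2.03 in distal against control and 1.26 in distal against wound bed, past the rule's size; this rests on the deep cells described above. The count of all genes meeting the rule moved with the setting. In the order wound bed against control, distal against control and distal against wound bed, it was 928, 900 and 935 as reported, 511, 443 and 428 with a pseudocount of 10, and 572, 401 and 522 in thinned cells. It was 1719, 1496 and 1731 in cells with at least 2000 genes, 1876, 1540 and 1619 in cells without a Krt10 read, and 1992, 1905 and 1987 without a detection filter. It was 246, 250 and 247 with a detection filter of 25%, 3276, 3912 and 3344 in batch 1 alone, and 2549, 2641 and 3319 in batch 2 alone. The cause of these shifts was not tested. The 2 settings chosen after the data were seen left the shares of Krt14 cells without Krt5 within their intervals. In thinned cells they were 9.80, 15.6 and 32.8% in wound bed, distal and control, and 4.84, 16.4 and 26.9% without cells rich in repeat-like reads. A share of cells with a read in Smart-Seq2 is limited by depth, and a gene without a read in a shallow cell may still be expressed.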
